A study of Homo sapiens with 4 samples.

Results

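The major histocompatibility complex (MHC) lies on the short arm of chromosome 6, and its open chromatin was described here in 786-O, a human renal carcinoma cell line. The deposited ATAC-seq peak lists of 4 libraries were merged at 1 bp or more of overlap, and the regions of chromosome 6 whose start lay from 28 to 34 Mb of GRCh38 were kept. This gave 453 regions of the 138467 on chromosomes 1 to 22 and X. The nearest regions at the edges were chr6:28001595-28002737, called in all 4 lists and just inside, and chr6:27987212-27987532, called in both DEK KO lists and just outside. At the far edge chr6:33987711-33987976, called in DEK KO replicate 2, was just inside, and chr6:34027266-34028094, called in all 4 lists, was just outside.

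The study compared DEK knockout cells with control cells; DEK is a DNA-binding protein of chromatin. The 2 WT control libraries are the labels' negative control of WT genotype, and the labels describe a cell clone made to express Cas9 with a lentivirus. The 2 DEK KO libraries came from Cas9-expressing cells that received a lentivirus carrying DEK guide RNAs and were sorted as single cells. All 4 libraries therefore share the Cas9 background, and whether the libraries of a group are separate clones or cultures is not stated, so a p-value across them covers only the variation among these 4 samples, possibly technical. The labels' extraction text is about RNA and an mRNA library kit, although the molecule is given as genomic DNA. Peak lists hold no read totals, so the depth of each library is unknown.

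The MHC encodes proteins that show peptides to T cells. Class I molecules are made by most nucleated cells and present peptides cut by the proteasome and carried by the TAP transporter, whereas class II molecules are made mainly by professional antigen-presenting cells and load peptides with the help of HLA-DM. Between both lies the class III part, which holds complement, TNF family and heat shock genes, and next to class I lies an extended part rich in tRNA, zinc finger and olfactory receptor genes. Class I and class II promoters share a module of short elements, the X and Y boxes, that RFX, CREB and NF-Y proteins bind and that the coactivators NLRC5 and CIITA act on. Interferon regulatory factors (IRF) and NF-kB bind further elements of class I and antigen processing genes.

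Promoter sequences from RefSeq (GRCh38.p14, from 250 bases before to 50 after the start) were available for 6 of the 8 class I genes, 12 of the 13 class II genes and all 5 antigen processing genes. The 8 shown are 2 class I promoters and the shared TAP1 and PSMB9 promoter, which lay in regions called in every list, and 4 class II promoters with different calls. Each is written 5′ to 3′ on the gene's strand. Capitals mark matches, on either strand, to the Y box core ATTGG, the CRE core TGACG, the X1 core AGNAACNG, the IRF pair GAAANNGAA or the NF-kB core GGGNNTTCC, and overlapping matches run together. The windows are chr6:31357130-31357429 (HLA-B, minus strand), chr6:31272043-31272342 (HLA-C, minus), chr6:32853655-32853954 (TAP1, minus), chr6:32853942-32854241 (PSMB9, plus), chr6:32953048-32953347 (HLA-DMA, minus), chr6:32940979-32941278 (HLA-DMB, minus), chr6:32666608-32666907 (HLA-DQB1, minus) and chr6:32589799-32590098 (HLA-DRB1, minus).
HLA-B: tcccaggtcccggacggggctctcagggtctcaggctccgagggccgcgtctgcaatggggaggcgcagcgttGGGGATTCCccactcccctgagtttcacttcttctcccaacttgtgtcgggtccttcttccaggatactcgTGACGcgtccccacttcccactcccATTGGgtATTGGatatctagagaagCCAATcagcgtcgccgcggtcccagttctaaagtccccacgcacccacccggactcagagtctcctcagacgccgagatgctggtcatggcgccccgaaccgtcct
HLA-C: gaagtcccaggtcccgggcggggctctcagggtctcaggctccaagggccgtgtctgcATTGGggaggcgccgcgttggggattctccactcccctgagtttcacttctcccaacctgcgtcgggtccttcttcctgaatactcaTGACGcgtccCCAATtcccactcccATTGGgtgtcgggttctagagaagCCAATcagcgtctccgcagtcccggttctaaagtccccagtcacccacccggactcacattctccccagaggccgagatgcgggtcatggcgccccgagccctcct
TAP1: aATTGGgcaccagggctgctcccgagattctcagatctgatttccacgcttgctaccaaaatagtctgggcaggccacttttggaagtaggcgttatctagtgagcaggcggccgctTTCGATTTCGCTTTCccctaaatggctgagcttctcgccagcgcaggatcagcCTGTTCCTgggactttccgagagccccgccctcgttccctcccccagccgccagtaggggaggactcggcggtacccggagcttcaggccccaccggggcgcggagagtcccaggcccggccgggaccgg
PSMB9: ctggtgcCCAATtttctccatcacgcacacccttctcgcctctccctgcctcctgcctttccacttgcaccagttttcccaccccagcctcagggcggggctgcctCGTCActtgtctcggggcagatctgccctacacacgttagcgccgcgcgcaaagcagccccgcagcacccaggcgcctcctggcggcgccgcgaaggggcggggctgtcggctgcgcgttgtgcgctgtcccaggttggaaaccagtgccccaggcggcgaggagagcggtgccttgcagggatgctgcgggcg
HLA-DMA: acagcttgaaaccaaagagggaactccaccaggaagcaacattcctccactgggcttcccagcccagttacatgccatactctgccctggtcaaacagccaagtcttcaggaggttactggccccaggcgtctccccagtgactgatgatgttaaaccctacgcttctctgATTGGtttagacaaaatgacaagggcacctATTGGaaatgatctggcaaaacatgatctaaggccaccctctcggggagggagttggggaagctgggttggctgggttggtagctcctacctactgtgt
HLA-DMB: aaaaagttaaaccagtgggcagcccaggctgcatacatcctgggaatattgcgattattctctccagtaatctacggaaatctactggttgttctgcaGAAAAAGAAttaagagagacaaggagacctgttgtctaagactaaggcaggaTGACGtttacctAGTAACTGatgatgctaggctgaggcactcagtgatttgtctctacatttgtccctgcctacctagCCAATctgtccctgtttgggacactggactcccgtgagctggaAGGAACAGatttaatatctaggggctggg
HLA-DQB1: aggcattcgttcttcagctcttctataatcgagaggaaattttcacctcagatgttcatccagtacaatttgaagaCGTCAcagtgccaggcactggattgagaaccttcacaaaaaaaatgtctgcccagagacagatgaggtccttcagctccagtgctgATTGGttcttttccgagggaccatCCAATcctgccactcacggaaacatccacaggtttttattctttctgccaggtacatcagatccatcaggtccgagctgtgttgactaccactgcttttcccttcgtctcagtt
HLA-DRB1: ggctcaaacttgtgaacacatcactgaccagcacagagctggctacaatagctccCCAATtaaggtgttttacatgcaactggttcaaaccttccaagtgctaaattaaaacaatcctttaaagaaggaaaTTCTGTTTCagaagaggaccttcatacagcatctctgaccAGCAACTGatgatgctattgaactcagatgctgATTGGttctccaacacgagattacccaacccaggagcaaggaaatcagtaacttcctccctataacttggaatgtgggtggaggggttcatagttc
All 300 bases lay in an open region for HLA-B, HLA-C, TAP1, PSMB9, HLA-DMA and HLA-DMB. For HLA-DQB1, 208 of the 300 bases lay in a region, called in the DEK KO lists alone, and for HLA-DRB1 none did.

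Letters of the Y box stood in 11 of 12 class II promoters and 5 of 6 class I promoters, against 36.3% of all 15812 promoters of the same length. The X1 core stood in 7 of 12 class II promoters, 3 of 5 antigen processing promoters and 0 of 6 class I promoters, against 15.2% of all. The IRF pair stood in 3 of 5 antigen processing promoters, 3 of 12 class II and 1 of 6 class I promoters, against 7.06% of all. Only the letters as written were searched, so the near form tttcacttc of HLA-B and HLA-C was not counted. For the CRE core the counts were 5 of 12, 3 of 5 and 2 of 6 in class II, antigen processing and class I promoters, against 29.4% of all. The NF-kB core was found in 1 promoter of each of the 3 groups, against 7.42% of all. The class II match was at HLA-DPA1, the class II promoter without a Y box, whose start in the promoter table lay inside HLA-DPB1. The longer near form gggactttcc of TAP1 was likewise not counted. HLA-DRB1, whose window lay in no region, had 2 Y box, 1 X1 and 1 IRF match, and HLA-DMB, whose window was open in all lists, had 1 Y box, 1 CRE, 2 X1 and 1 IRF match. A match describes the letters and does not show binding, and a missing match does not show that an element is absent.

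The lists of WT control replicates 1 and 2 held 329 and 331 peaks in the locus, and those of DEK KO replicates 1 and 2 held 359 and 379. The WT control mean was 330 ± 1.41 and the DEK KO mean 369 ± 14.1 (SD, n = 2 each), and both DEK KO lists were above both control lists (ratio 1.12, two-sided exact permutation p = 0.33, the smallest p that 2 against 2 libraries allow). The whole lists differed alike, with 89563 and 90409 peaks in the controls and 102760 and 99508 in DEK KO. As a share of its own list the locus took 0.367%, 0.366%, 0.349% and 0.381% in the same order, and the DEK KO shares lay on either side of the control shares (exact permutation p = 1). The DEK KO lists as a whole were also 1.12 times as long on average, the same ratio as in the locus.

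Open regions were dense in the locus, at 75.5 per Mb against 44.9 per Mb over the rest of chromosome 6. They were also called more uniformly: 266 of 453 (58.7%) were in all 4 lists, against 45.3% of all regions, and 94 were in 1 list only (20.8%), against 29.4%. Regions within 1 kb of an end of a protein-coding gene made up 31.8% of the locus and 11.2% of all regions. Among such gene-end regions 106 of 144 (73.6%) were in all 4 lists, close to 75.2% over all chromosomes. Between genes 116 of 216 (53.7%) were in all lists, against 40.4%, and inside genes 44 of 93 (47.3%), against 42.5%.

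Regions called in both DEK KO lists and neither control list (KO-only) numbered 25, or 5.52%, against 6.26% of all regions. Regions called in both control lists and neither DEK KO list (WT-only) numbered 10, or 2.21%, against 2.57%. Both shares were near the background. DEK KO replicate 2 alone called 46 regions (10.2%, against 9.19% of all regions), DEK KO replicate 1 alone 23 (5.08%, against 9.43%), WT control replicate 2 alone 19 (4.19%, against 5.98%) and WT control replicate 1 alone 6 (1.3%, against 4.81%). More regions were thus called in DEK KO replicate 2 alone than in both DEK KO lists alone. Leaving out DEK KO replicate 1, DEK KO replicate 2 or WT control replicate 1 raised the KO-only count to 71, 50 or 39, since fewer lists then decide the call, or 16.4%, 12.2% and 8.67% against 17.2%, 17.3% and 9.86% of all regions. The WT-only count became 30 or 16 without WT control replicate 1 or 2 (6.67% and 3.67%, against 9.06% and 7.96% of all regions). It became 21 or 18 without DEK KO replicate 1 or 2 (4.86% and 4.39%, against 6.68% and 4.73%).

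Along the chromosome the locus was split at named genes. The extended class I part (chr6:28000000-29672391, up to ZFP57) held 94 regions, the class I part (chr6:29672392-31511124, ZFP57 to MICB) 160, the class III part (chr6:31511125-32407181, to BTNL2) 87 and the class II part (chr6:32407182-33162693, up to COL11A2) 37. The extended class II part (chr6:33162694-33409896, to KIFC1) held 25 and the flank beyond it 50. Class II was the sparsest part, at 49.0 regions per Mb, and class III and extended class II were densest, at 97.1 and 101 per Mb. Coding genes stood at 23.8, 68.1 and 64.7 per Mb in these parts. Extended class I and the flank held fewer genes per Mb than class II, 20.9 and 16.9, and more regions, 56.2 and 84.7 per Mb. The share called in all 4 lists was highest in extended class I (63 of 94, 67.0%), followed by class I (95 of 160, 59.4%), class III (51 of 87, 58.6%), extended class II (14 of 25, 56.0%), class II (19 of 37, 51.4%) and the flank (24 of 50, 48.0%). KO-only regions numbered 4, 6, 7, 2, 2 and 4 in chromosomal order (4.26%, 3.75%, 8.05%, 5.41%, 8% and 8%, against 6.26% of all regions). WT-only regions numbered 1, 3, 2, 1, 3 and 0 (1.06%, 1.88%, 2.30%, 2.70%, 12% and 0%, against 2.57%).

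**Figure D1:**
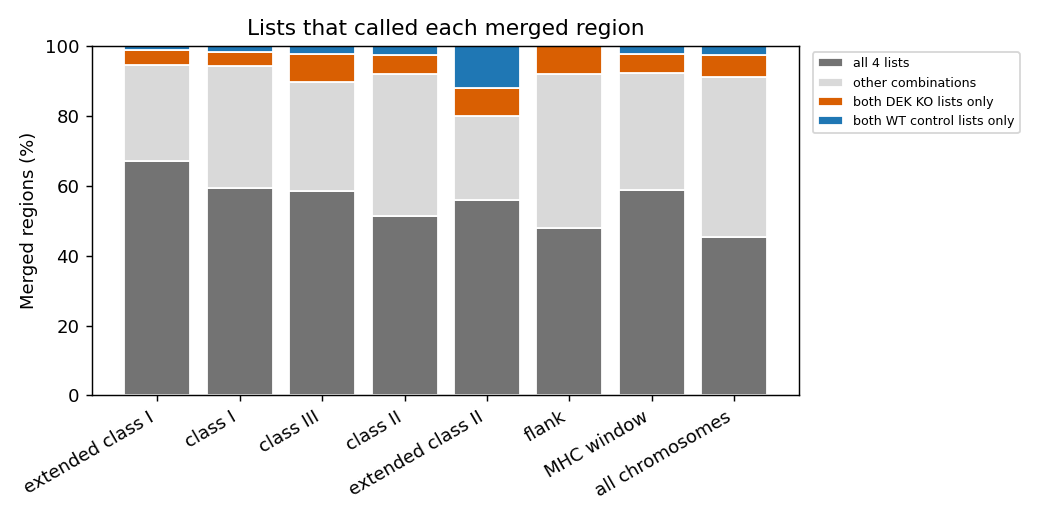
Share of merged regions (%) by the lists that called them, for the 6 parts in chromosomal order, the whole MHC window and all chromosomes; each bar adds to 100%. Regions in all 4 lists make up 58.7% of the window and 45.3% of all regions. KO-only regions make up 5.52% and WT-only regions 2.21% of the window, against 6.26% and 2.57% of all regions. The largest WT-only share, in extended class II, rests on 3 of 25 regions (12%).

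Peaks were ranked by −log10 p inside each list and the rank was written as a percentile, so that the strongest peak has the highest percentile. The median percentile of the locus was 58.2 and 58.3 in the controls and 57.1 and 57.6 in DEK KO, so both DEK KO lists were below both controls (difference of the means −0.906, exact permutation p = 0.33). These lists differ in length, and a percentile shows where a peak stands in its own list, not a change between lists.

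The class I genes were open in nearly every list. A region in all 4 lists lay at the start, or at the lower end where the promoter table gave no strand, of 7 of 8 genes. Here and below a region at a start, or a start region, is one within 1 kb of the start in the promoter table, and it need not cover that start. The background for this and later gene counts is 59.8% of all 15812 coding starts with a region in all 4 lists. That share counts starts alone, so counts that use an end for some genes are not quite alike. HLA-B and HLA-C encode classical chains that present peptides to cytotoxic T cells. At HLA-C (chr6:31271672-31272665) the peak stood at percentiles 78.8 and 70.8 in WT control and 56.1 and 72.0 in DEK KO. HLA-B (chr6:31356608-31357676) was much lower in its lists, at 37.9 and 42.5 and at 29.0 and 37.9. HLA-C ranked above HLA-B in every list. The fold over background at the HLA-B summit, as the authors' caller wrote it, was 5.57 and 5.73 in WT control and 4.36 and 5.28 in DEK KO, and at HLA-C 11.5, 9.22, 6.63 and 9.92. HLA genes are near copies of each other and vary between people, and the treatment of multiply aligned reads is not stated, so their peak heights are uncertain.

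The other class I genes followed the same split into strong and weak peaks. HLA-E, a ligand of natural killer cell receptors, was at 86.1, 89.1, 89.2 and 86.2 in the order WT control replicates 1 and 2, then DEK KO replicates 1 and 2. HLA-F, another non-classical gene, was at 77.8, 81.2, 74.8 and 91.0. MICA and MICB, stress-induced ligands of the receptor NKG2D, stood lower, MICA at 54.7, 58.8, 54.4 and 73.0 and MICB at 16.0, 39.4, 45.8 and 31.2. HLA-G, known from the placenta, was the exception: its start region had no peak in WT control replicate 2 and was at 20.8 in WT control replicate 1 and at 38.3 and 44.8 in DEK KO. The percentiles of the groups overlapped at HLA-E, HLA-F, MICA and MICB.

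All 5 antigen processing genes had a start region in all 4 lists, against 59.8% of all coding starts. TAP1, a subunit of the peptide transporter, and PSMB9, an immunoproteasome subunit, are transcribed away from each other and shared chr6:32852788-32854813, which stood at 92.9 and 97.9 in WT control and 92.2 and 95.8 in DEK KO. PSMB8, another immunoproteasome subunit, was at 96.2, 87.8, 94.0 and 84.2, and TAP2, the other transporter subunit, at 84.3, 88.7, 87.8 and 89.9. TAPBP, which encodes tapasin and lies in the extended class II part, was weaker at 46.4, 44.8, 47.2 and 34.2. Its summit lay 1219 bp downstream of the start in DEK KO replicate 2, and at 37, 109 and −35 bp from it in the other lists. The transporter and proteasome genes thus ranked high in every list, and the groups overlapped at each of these 5 genes in the deposited lists.

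Of the 13 class II genes, 3 had a region in all 4 lists, 3 in some lists and 7 in none. Of all coding starts, 59.8% had a region in all 4 lists. The shared ones were HLA-DMA and HLA-DMB, which encode the peptide-loading chaperone HLA-DM, and HLA-DPB1, a beta chain that presents peptides. HLA-DMA (chr6:32952939-32953440) stood at 88.4 and 89.5 in WT control and 93.2 and 93.9 in DEK KO. HLA-DMB (chr6:32940749-32941769) was at 71.0, 78.0, 80.5 and 68.2. HLA-DPB1 (chr6:33075546-33076276) was weak, at 33.2, 22.4, 44.0 and 39.4. In these lists of unequal length both DEK KO percentiles were above both control percentiles at HLA-DMA and HLA-DPB1, as at 31.1% of all shared regions, and the groups overlapped at HLA-DMB. With lists of equal length the groups overlapped at HLA-DPB1 too.

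The partly called class II genes each had small peaks. At HLA-DQB1, a beta chain gene, chr6:32666490-32666815 covered the start and was called at percentiles 36.6 and 53.0 in DEK KO, with folds of 4.56 and 6.17, and in neither control list. HLA-DRA, the nearly invariant alpha chain of HLA-DR, had a peak in DEK KO replicate 2 alone, at 22.7, and HLA-DOA, which encodes a modulator of HLA-DM, in WT control replicate 2 alone, at 2.38. HLA-DRB1, HLA-DRB5, HLA-DQA1, HLA-DQA2, HLA-DQB2, HLA-DPA1 and HLA-DOB had no region within 1 kb of the start in any list. For HLA-DPA1 the start in the promoter table lay inside the span of HLA-DPB1, and any other HLA-DPA1 start was not examined. An uncalled start lies below the authors' threshold, which does not show that it is closed.

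**Figure D2:**
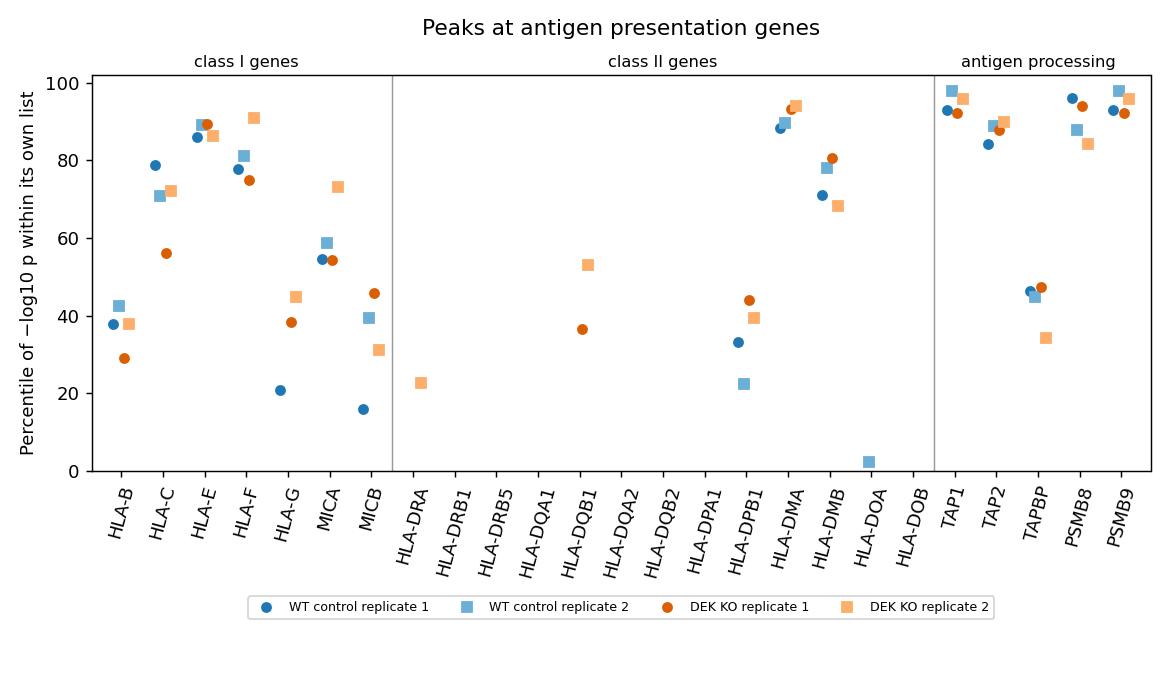
Percentile of −log10 p within its own list (0 to 100) of the peak at class I, class II and antigen processing genes in the 4 libraries; a missing point means that no peak was called. The class I and processing genes shown carry points from every library except HLA-G, whereas 7 of 13 class II genes carry none, and TAP1 and PSMB9 share 1 region.

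Class III genes were open to different degrees. Of the complement genes, C2 and CFB had a start region in all lists and C4A and C4B none. CFB, which encodes factor B of the alternative pathway, was at 52.1, 60.3, 51.8 and 61.1. C2 shared its region (chr6:31897686-31898775) with the start of EHMT2, a histone methyltransferase gene, at 39.4, 50.6, 44.1 and 21.5. C4A and C4B are near-identical copies, as are CYP21A2 and its pseudogene beside them, so reads there may be placed with less certainty. LTB, which encodes a lymphotoxin chain, had a region within 1 kb of its start in all lists, at 52.8, 56.3, 60.1 and 57.6. That region did not cover the start, and its summits lay 1207 to 1394 bp downstream. TNF and LTA had no region within 1 kb of their starts. Each had a region within 1 kb of an end of its span in the gene table, called in all lists at LTA and not in all at TNF.

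The heat shock genes encode chaperones of the HSP70 family, and all 3 had a start region in every list. HSPA1B (chr6:31826807-31828003) ranked near the top of the lists, at 98.8, 95.3, 98.7 and 99.5. HSPA1A and HSPA1L, transcribed away from each other, shared chr6:31814059-31815752, at 33.0 and 31.5 in WT control and 46.2 and 48.7 in DEK KO. Both DEK KO percentiles were above both control percentiles there, as at 31.1% of all shared regions in these lists of unequal length. With lists of equal length this still held, as at 22.5% of all shared regions. HSPA1A and HSPA1B are near-identical copies, so how reads were placed between them could move both values. Of 29 other class III genes of the list that were in the gene table, 21 had a region in all 4 lists at the start, or at an end where no strand was given, 1 in some and 7 in none (AIF1, TNXB, CYP21A2, EGFL8, AGER, NOTCH4 and BTNL2). The share of all coding starts with a region in all 4 lists was 59.8%. NOTCH4 had a region of all 4 lists at its other end, and TNXB had some inside the gene. Highest was PRRC2A, an RNA-associated protein gene, at 98.1, 99.2, 98.3 and 99.2. SKIC2 and NELFE, with a shared region at 93.9, 91.3, 91.9 and 96.5, and AGPAT1 and RNF5, with a shared region at 94.2, 94.5, 93.2 and 93.3, were also strong in every list.

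The class I part also holds genes unrelated to antigen presentation. Of 24 such genes, 19 had a region in all 4 lists at the start, or at an end where no strand was given, 1 (POU5F1, in DEK KO replicate 1 alone) in some and 4 (ZFP57, GABBR1, DDR1 and CDSN) in none. Again the share of all coding starts with a region in all 4 lists was 59.8%. GABBR1 and CDSN had a region of all 4 lists at another end of the gene, and DDR1 had one inside the gene. MDC1, a DNA damage response gene, was at 97.0, 93.5, 92.6 and 95.8, and GNL1 and PRR3, with a shared region, at 91.3, 92.0, 92.1 and 94.4. Of the 7 TRIM genes in the window, which encode ubiquitin ligases, TRIM26, TRIM31 and TRIM39 had a start region in all 4 lists. TRIM27, for which no strand was given, had one in all 4 lists at its upper end. TRIM10, TRIM15 and TRIM40 had no start region, although TRIM10 and TRIM15 held regions of all 4 lists inside the gene. Of 18 HLA pseudogenes in the window, 5 had a region within 1 kb of an end and 3 (HLA-V, HLA-L and HLA-DPB2) had one in all 4 lists. At HLA-V a further region, chr6:29797218-29797705, was KO-only, at 40.6 and 57.5.

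The extended class I part held all 44 tRNA genes of the locus. Of these, 36 overlapped a region and 28 overlapped one in all 4 lists (63.6%, against 57.1% of the 443 tRNA genes on these chromosomes). They lay in 32 regions, 24 of which were in all lists. Genes for alanine tRNA were the most numerous: 15 in number, 15 in a region and 12 in a region of all 4 lists. Of 6 phenylalanine tRNA genes, 2 were in a region of all lists. By lowest percentile the strongest regions lay over TRL-CAA1-1, a leucine tRNA gene, at 91.2, 88.3, 94.7 and 89.5, and over TRL-CAA1-2 and TRQ-CTG1-3 together, at 87.5, 91.2, 86.1 and 87.5. KO-only regions lay over the alanine tRNA genes TRA-TGC2-1 (chr6:28643203-28643636, at 50.8 and 59.4) and TRA-AGC6-1 (chr6:28811867-28812388, at 49.7 and 38.4). At TRA-AGC5-1 (chr6:28710503-28711369) the control percentiles were 5.57 and 2.38 and the DEK KO percentiles 57.2 and 50.7, so the peak was weak in both control lists and near the middle of both DEK KO lists. In these lists of unequal length 31.1% of all shared regions had both DEK KO percentiles above both control percentiles. Copies of a tRNA gene are nearly identical, and the same limit on multiply aligned reads applies.

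**Figure D3:**
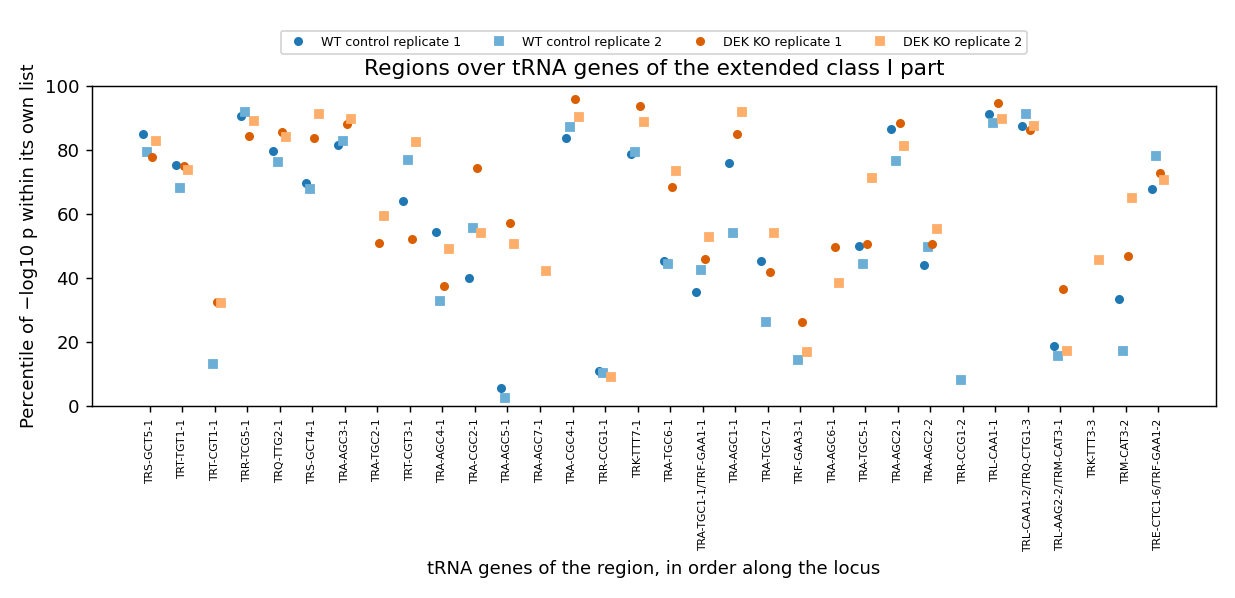
Percentile of −log10 p within its own list for the 32 regions that overlap tRNA genes of the extended class I part, in order along the chromosome, with 1 point per library that called the region. TRA-AGC5-1 shows the widest separation of the libraries, and 24 regions carry all 4 points.

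Other families of the locus differed. Of 11 zinc finger genes named ZNF, ZSCAN or ZKSCAN, 10 had a region within 1 kb of an end and 9 had one in all 4 lists (81.8%, against 75.6% of 545 such genes). Of 14 olfactory receptor genes, 1 had a region and 0 had one in all lists, against 3.32% of 392. None of the 16 microRNA genes overlapped a region, against 10.2% of 1911. Of 91 long non-coding RNA genes, 43 had an end in a region of all 4 lists (47.3%, against 29.4% of 18177). The extended class I part had the most uniformly called regions and yet the lowest share of open coding starts, 7 of 30 (23.3%), and 69.1% of its regions lay between coding genes.

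Over the whole window, 95 of 169 coding gene starts (56.2%) had a region in all 4 lists, near the 59.8% of all 15812 starts. By part the counts were 28 of 44 in class I (63.6%), 34 of 55 in class III (61.8%), 8 of 17 in class II (47.1%), 11 of 14 in extended class II (78.6%) and 7 of 9 in the flank (77.8%). In extended class II, KIFC1, a kinesin gene, had the highest start region by lowest percentile, at 95.8, 97.0, 88.2 and 97.5, and DAXX, a histone chaperone gene, was at 86.6, 87.9, 88.2 and 91.8. RING1, a Polycomb gene, was called in 3 lists (18.1, 42.3 and 9.72) and not in DEK KO replicate 2. In the flank, the region at the start of CUTA was at 93.6, 96.0, 95.4 and 98.6, and BAK1, a pro-apoptotic gene, was at 88.0, 83.5, 84.8 and 86.5.

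**Figure D4:**
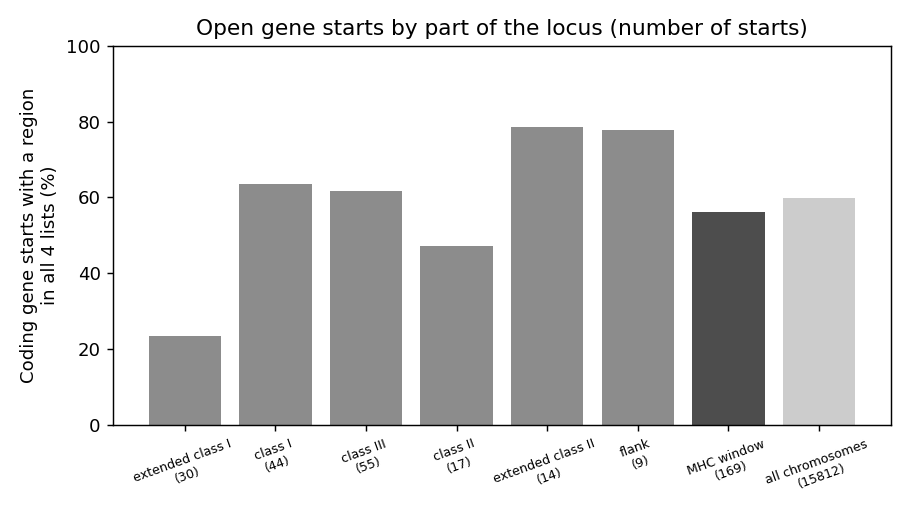
Share of coding gene starts with a region in all 4 lists (%), by part of the locus, for the whole window and for all chromosomes, with the number of starts in brackets. Extended class I is lowest at 23.3% and the window as a whole, at 56.2%, is close to all chromosomes at 59.8%.

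The 5 regions with the highest lowest percentile lay at PRRC2A, at chr6:29952991-29954075, at HSPA1B, at the PPP1R11 start of the promoter table and at CUTA. The region chr6:29952991-29954075 overlapped no gene of the table, at 96.9, 96.1, 98.2 and 98.1. PPP1R11, a phosphatase inhibitor gene, was at 98.1, 98.1, 94.2 and 99.4. In the class II part, chr6:32894154-32895254 lay 34.3 kb from PSMB9 over the non-coding gene LOC100294145, at 87.5, 86.6, 92.2 and 94.7. Some of the strongest regions of the locus therefore lay away from coding gene ends.

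The KO-only regions were mostly weak. The median of their lower percentile was 22.7, against 21.6 over all KO-only regions, and 2 of 25 (8%) had both percentiles above 50, against 10.1%. These 2 were chr6:32137049-32137557, between genes 6.76 kb from FKBPL, at 60.3 and 68.9 with folds of 8.30 and 11.7, and the region over TRA-TGC2-1. By position 6 of the 25 were at gene ends (24%, against 3.89% of all 8673 KO-only regions), 6 inside genes (24%, against 44.3%) and 13 between genes (52%, against 51.8%). Of all gene-end regions, 4.17% were KO-only in the locus and 2.18% over all chromosomes. Within 1 kb of coding gene starts lay 3, those of HLA-DQB1, RNF39 (a ubiquitin ligase gene, 2.86 and 6.22) and SAPCD1 (5.17 and 0.449). The calls at RNF39 and SAPCD1 were lost with a −log10 q of at least 5 and with lists of equal length, and that at HLA-DQB1 was kept under both. Within or near immune genes, KO-only regions lay inside CFB (chr6:31948799-31949173, 35.7 and 32.4), inside the table's span of LTA (chr6:31563238-31563581, 37.4 and 46.4), 11.4 kb from HLA-B (chr6:31368537-31369069, 41.0 and 28.0), 2.44 kb beyond MICB (30.4 and 42.2) and 5.32 kb from HLA-DOA (11.9 and 2.52, a call lost under both alternatives). The remaining ones were nearest to ZNF311, MAS1L, ZFP57, TRIM31 (2 regions), LY6G5C, CYP21A2 (inside TNXB), B3GALT4, KIFC1, ZBTB9, IP6K3 (2 regions), MLN and the HLA-V and TRA-AGC6-1 regions given above.

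The 10 WT-only regions had a median lower percentile of 23.9, against 16.0 over all WT-only regions, and 0 of 10 had both above 50, against 3.80%. The highest lay 3.94 kb from NRM (chr6:30695361-30695821), at 38.8 and 46.2. A region lay 0.414 kb past the 3′ end of HLA-DMA (chr6:32947761-32948204), at 31.1 and 38.7, so the locus held a WT-only region at the end and a shared region at the start of this gene. At MCCD1 the region covered the start (18.4 and 4.20), a call lost with the stricter q. The rest were nearest to OR2B3, HLA-E (22.2 kb away), DDR1, HSPA1B (6.53 kb away, over SNHG32), RING1, SMIM40 and KIFC1, and 8 of the 10 lay between genes (80%, against 40.7% of all 3554 WT-only regions). Regions of any call lay between genes in 47.7% of cases in the locus and 43.2% over all chromosomes. Of all regions between genes, 3.70% were WT-only in the locus and 2.42% over all chromosomes.

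**Figure D5:**
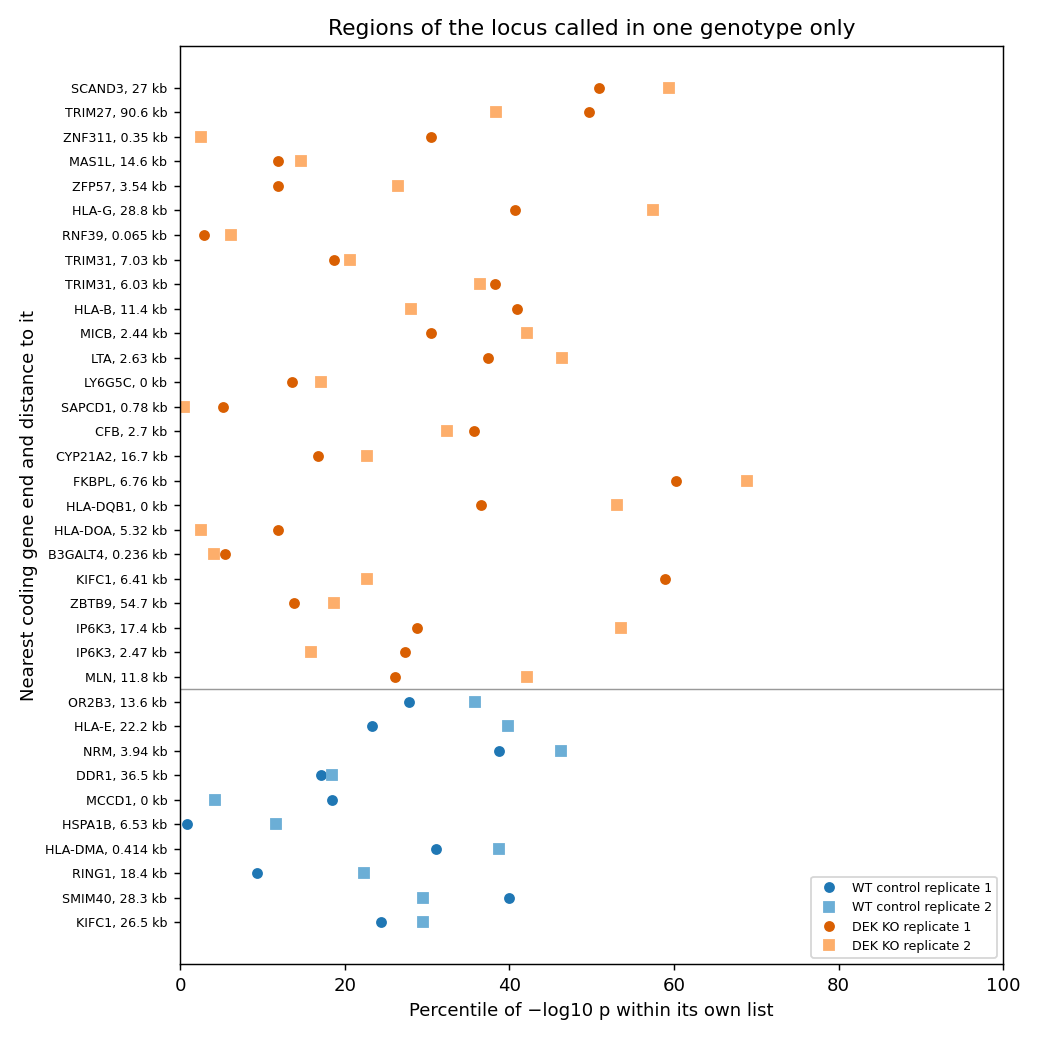
Percentile of −log10 p within its own list of the 25 KO-only regions (above the line) and the 10 WT-only regions (below it), each named by the nearest coding gene end and its distance in kb. Most points lie under 50, and the region 6.76 kb from FKBPL is the highest, at 60.3 and 68.9.

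To set ranks side by side, every list was reduced to its 89563 strongest peaks by −log10 p, the length of the shortest. Of 260 regions of the locus in all 4 reduced lists, 65 (25.0%) had both DEK KO percentiles above both WT control percentiles, against 22.5% of 60819 regions overall. In 39 (15.0%) both DEK KO percentiles were below, against 28.0% overall. The locus thus had fewer regions that ranked lower in DEK KO than the background and a similar number that ranked higher. In the lists of deposited length the counts were 101 of 266 (38.0%, against 31.1%) above and 34 of 266 (12.8%, against 19.2%) below. By part, 27 of 94 in class I were above and 11 below, 19 and 9 of 62 in extended class I, 5 and 11 of 50 in class III, 5 and 2 of 17 in class II, 1 and 2 of 14 in extended class II and 8 and 4 of 23 in the flank. Class III and extended class II were the parts with more regions below than above, which is also the direction over all shared regions (28.0% below and 22.5% above). Regions over tRNA genes were above in 9 of 24 and below in 2, against 51 and 22 of 167 tRNA regions elsewhere and 10 and 7 of 38 other regions of extended class I.

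The widest gaps were few. Above, chr6:32075369-32076733 inside TNXB, the tenascin X gene, stood at 3.49 and 6.94 in WT control and 61.2 and 49.6 in DEK KO, and TRA-AGC5-1 at 5.57 and 1.46 and at 50.9 and 45.2. A region 0.111 kb from the end of HLA-F (chr6:29737969-29738421) was at 24.4 and 21.6 in WT control and 50.1 and 47.6 in DEK KO. Below, chr6:33770957-33772039 at the end of LEMD2, a nuclear envelope protein gene, was at 62.2 and 65.0 in WT control and 31.7 and 27.1 in DEK KO, and chr6:30744231-30744808 at an end of IER3, an early response gene, at 60.2 and 55.8 and at 27.5 and 31.0. At the antigen presentation genes the reduced lists gave the groups as not overlapping at HLA-B (37.9 and 42.0 in WT control, 18.5 and 31.0 in DEK KO), at HLA-C (78.8 and 70.6, 49.6 and 68.8), at TAPBP (46.4 and 44.3, 39.5 and 26.9) and, in the other direction, at HLA-DMA (88.4 and 89.4, 92.2 and 93.3). They overlapped at HLA-E, HLA-F, MICA, MICB, TAP1, TAP2, PSMB8, HLA-DMB and HLA-DPB1. Over the class I, class II and processing genes this was 3 of 14 regions below and 1 of 14 above, against 28.0% and 22.5% of all shared regions. HLA-C and TAPBP overlapped in the deposited lists and HLA-DPB1 did not, so the calls at these 3 genes depend on the reduction. HLA-B was nearly tied in the deposited lists, at 37.91 in WT control replicate 1 and 37.89 in DEK KO replicate 2. At TAPBP the DEK KO replicate 2 summit of the deposited list lay 1219 bp downstream of the start, unlike the other lists.

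All 15 listed genes of antigen presentation outside the locus had a region in all 4 lists. It lay at the start, or at an end where no strand was given. Among them were B2M (the light chain of class I), NLRC5, CIITA and RFX5. At B2M the percentiles were 86.8, 88.5, 71.7 and 91.6. At CIITA the region lay at the upper end of the gene, at 66.8, 63.6, 59.7 and 55.0. Such an end may be either side of a gene, so this region does not show that the CIITA start is open. Renal markers were called at 4 of 6 genes (among them PAX8, CDH6 and LHX1, and not PAX2 or CA9), markers of blood and antigen-presenting cells at 1 of 6 in all lists (SPI1, at its lower end) and hepatocyte markers at 1 of 2 (APOA1, at its lower end), where 59.8% of all coding starts had a region in all lists. PTPRC, CD3E and LYZ had no region. The start of DEK itself was called in all 4 lists, at 11.9, 24.1, 39.5 and 57.6, and a peak list cannot show whether the gene is cut. Both DEK KO percentiles were above both control percentiles there, as at 31.1% of all shared regions.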

How the data were processed

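ATAC-seq was represented by 4 deposited peak lists, 1 from each library, with no pooling of replicates. Per the submitters' processing notes reads were handled on GRCh38 with tools that included Bowtie2 2.2.5, cutadapt 1.18 and MACS2 2.2.7.1. Not given in the sources used here are their settings, any shift of reads for the transposase and the filter on multiply aligned reads. The deposited fold column is the ratio of pileup to background at the summit. The deposited p- and q-value columns are on the −log10 scale, the deposited score column was not used, and the deposited summit offset in bp served for the summit alternative. The lowest deposited −log10 q lay between 1.30 and 1.32 in every list.

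Between 135 and 167 peaks of a list lay outside chromosomes 1 to 22 and X and were set aside. Lists were merged at 1 bp of overlap, and the strongest peak gave a region its value in a list. Gene positions and promoters came from RefSeq tables of GRCh38.p14. The promoter table gave a start and strand for 15812 of 19974 protein-coding genes and for 169 of the 190 in the window. Fold and −log10 values describe peaks within 1 list. Values per library were compared with a two-sided exact permutation test, which has 6 ways to assign the libraries, and regions were not tested, since they are not replicates. The merging was tested on simulated lists.

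Named were all genes of the lists, all regions called in 1 genotype and the highest-ranked shared regions. Among others, regions with the widest gaps in the equal-length lists, the gene families, the HLA pseudogenes and the tRNA genes were chosen after their values were seen. The members and gene lists were chosen with earlier results of these data known. STK19 was not in the gene table under that symbol, and TRIM38 lay outside the window. Some genes counted in the lists are not reported here by name. Alternatives were a stricter q-value, lists of equal length, a coverage minimum, summit windows, percentiles by fold, a replicate block and leaving out each library. Python 3.11.15, numpy 2.4.6 and pandas 2.3.3 were used.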

Additional observations from a re-analysis of the deposited data

How the results depend on the processing

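The number of MHC peaks was higher in DEK KO under every alternative run, by 18.5 to 49 peaks. The difference in the share of peaks in the locus, −0.00161 percentage points, changed sign with a −log10 q of at least 5 (0.00470), with lists of equal length (0.0207) and without DEK KO replicate 1 (0.0141). It lay between −0.0174 and 0.0141 when 1 library was left out. With lists of equal length both DEK KO shares were above both control shares (exact permutation p = 0.33). The difference in median percentile stayed negative, at −0.791 with the stricter q, −3.85 with equal lengths, −0.881 by fold and between −1.13 and −0.681 with 1 library left out. With the stricter q and by fold the medians of the groups overlapped (exact permutation p = 0.67 for each).

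KO-only regions numbered 18 with the stricter q (4.70%, against 6.54% of all regions), 18 with equal lengths (4.15%, against 5.18%), 27 where a peak had to cover 0.5 of the region (5.96%, against 7.12%) and 25 from summit windows (4.90%, against 5.85%), and between 33 and 71 with 1 library left out. Of the original 25, 13 kept that call with the stricter q and 18 with equal lengths. WT-only regions numbered 16 with the stricter q (4.18%, against 3.47% of all regions), 14 with equal lengths (3.23%, against 3.97%), and between 16 and 30 with 1 library left out. The cause of these shifts was not tested beyond the number of lists or peaks that each alternative keeps. Regions in all 4 lists numbered 212 to 260 under the other alternatives and 273 to 279 with 1 library left out. Lists of deposited length, an alternative chosen after seeing the data, gave 101 shared regions ranked above in DEK KO, against 65 with equal lengths.

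With the replicate number as a replicate block, the differences were the same by construction (39 peaks, −0.00161 percentage points and −0.906 percentiles), and the exact permutation p was 0.5, 1 and 0.5, where 0.5 is the smallest possible. The labels share only numbers between groups: the differences between replicates 1 and 2 correlated at 0.0124 over 62686 shared regions. Peak lists carry no depth, so an uncalled region cannot be told from one below the detection limit, and 2 libraries per group cannot give an exact p under 0.33.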
